A study of Mus musculus with 37 samples.

Results

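A set of 10 genes that mark opposite ends of the liver lobule and handle its nitrogen were followed through livers with 2 different substitutions in the transcription factor STAT5B. The genes were chosen by symbol: Glul, Oat, Rhbg, Slc1a2 and Axin2 as pericentral genes, expressed around the central vein, and Gls2, Hal, Sds, Ass1 and Cps1 as periportal genes, expressed near the portal vein. All 10 symbols were found among the 24421 gene rows of every library. Of these 10, 9 passed the filter on low counts and were tested with 15152 genes in all, and Ass1 did not pass. Total RNA was measured in 37 mouse liver libraries. The mice were of the C57BL/6 strain and 2 months old, and carried wild-type Stat5b (WT) or a point mutation at residue Y665 of STAT5B, written Y665F or Y665H after the replacing amino acid. Male libraries numbered 6 for WT, 9 for Y665F and 4 for Y665H, and each female group held 6 libraries. The labels do not say whether a substitution was on a single allele or on both, and they name library kits of 2 makers without saying which library was made with which.

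Liver lobules are divided along the flow of blood. Hepatocytes near the portal vein make urea from ammonia through carbamoyl phosphate synthetase (Cps1) and argininosuccinate synthetase (Ass1), and they break down glutamine, histidine and serine, with Gls2, Hal and Sds as the entry enzymes. A thin layer of hepatocytes around the central vein captures the remaining ammonia and glutamate as glutamine, through glutamine synthetase (Glul), the ammonia channel Rhbg, the glutamate transporter Slc1a2 and ornithine aminotransferase (Oat). Wnt ligands from the central vein endothelium maintain this pericentral programme through beta-catenin, and Axin2, a scaffold of the complex that degrades beta-catenin, is a standard read-out of that signal. STAT5B carries the growth hormone signal in hepatocytes, and the different growth hormone release of males and females underlies much of the sex bias of liver genes.

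Male livers had gene totals of 49141951 to 73937726 counts and female livers of 24388434 to 40864173, so depth did not overlap between the sexes. Any step that followed sex cannot be told apart from sex. Hepatocyte markers were high in every group (a summed level of at least 85907 CPM, counts scaled to library size, over 7 genes). In bulk liver RNA, fewer cells of a type and less RNA per cell cannot be told apart. The time of day at which livers were collected is not given in the sources used here.

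On GRCm38 (mm10) with the GENCODE M21 annotation, the members are protein-coding genes that lie on 7 chromosomes. Glul lies at chr1:153899944-153909723 (plus strand), Oat at chr7:132557478-132576398 (minus), Rhbg at chr3:88242874-88254709 (minus), Slc1a2 at chr2:102658659-102790784 (plus) and Axin2 at chr11:108920349-108950783 (plus). Gls2 lies at chr10:128194457-128210004, Hal at chr10:93488768-93519304, Sds at chr5:120476526-120483932, Ass1 at chr2:31470207-31520672 and Cps1 at chr1:67123026-67231259, all on the plus strand. The counts refer to whole genes, over exons of all annotated transcripts. Rhbg shared 59.4% of its 100-base stretches with the read-through gene Gm38392 on the same strand, which has no row in the files, and Sds shared 22.0% with the antisense gene Plbd2, so reads of these pairs may not have been told apart.

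RefSeq promoters (GRCm38.p6) were matched for 6 of the 10 members, namely Glul, Oat, Slc1a2, Axin2, Hal and Ass1. Each window runs from 250 bases before to 50 bases after the start, and was searched on both strands for 5 short motifs, a STAT site (TTCNNNGAA), a TCF site (CTTTG followed by 2 bases that are each A or T), the promoter box CCAAT, the start-proximal box TATAAA and a nuclear receptor motif (AGGTCA). The 250 bases before the start are printed for 3 pericentral genes and 1 periportal gene whose levels moved in opposite directions in males, with every match in capitals.
Glul, chr1:153899679-153899928 (plus strand): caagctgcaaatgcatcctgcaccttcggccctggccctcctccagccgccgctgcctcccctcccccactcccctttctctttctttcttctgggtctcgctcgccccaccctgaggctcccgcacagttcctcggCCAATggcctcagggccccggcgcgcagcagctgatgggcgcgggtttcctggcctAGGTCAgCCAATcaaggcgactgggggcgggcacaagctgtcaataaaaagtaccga
Oat, chr7:132576399-132576648 (minus strand): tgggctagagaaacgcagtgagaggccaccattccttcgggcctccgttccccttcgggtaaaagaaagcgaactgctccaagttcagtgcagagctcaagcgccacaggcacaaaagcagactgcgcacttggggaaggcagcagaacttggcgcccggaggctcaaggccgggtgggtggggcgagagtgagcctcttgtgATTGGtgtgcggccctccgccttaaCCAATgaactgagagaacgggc
Slc1a2, chr2:102706188-102706437 (plus strand): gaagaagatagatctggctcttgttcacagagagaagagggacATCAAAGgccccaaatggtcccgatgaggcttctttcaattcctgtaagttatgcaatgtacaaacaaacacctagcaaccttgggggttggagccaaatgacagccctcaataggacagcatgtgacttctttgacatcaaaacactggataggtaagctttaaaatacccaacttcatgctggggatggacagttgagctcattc
Hal, chr10:93488518-93488767 (plus strand): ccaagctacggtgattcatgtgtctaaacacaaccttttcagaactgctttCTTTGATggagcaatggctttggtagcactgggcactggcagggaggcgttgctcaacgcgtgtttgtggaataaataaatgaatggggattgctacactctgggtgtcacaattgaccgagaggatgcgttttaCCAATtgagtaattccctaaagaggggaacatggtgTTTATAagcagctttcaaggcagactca

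The TCF motif, bound by the partners of beta-catenin, occurred in the windows of Slc1a2 (ATCAAAG on the printed strand, 207 bases before the start) and Hal (CTTTGAT, 199 bases before), that is in a pericentral and in a periportal gene. It occurred in 16.9% of all 32817 promoter windows of the same length. The STAT motif occurred in none of the 6 windows and in 8.29% of all windows. The CCAAT box (37.4% of all windows) stood in Glul, Oat, Axin2 and Hal, the TATAAA box (13.6%) in Hal, and the nuclear receptor motif (16.3%) in Glul and in Slc1a2, where it lies 44 bases past the start and is not in the printed stretch. The motifs do not overlap one another in these windows. The RefSeq start used for Slc1a2 lies inside the GENCODE gene. These matches describe letters only.

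Per kilobase of exon, Cps1 was the most abundant member in WT males, at 1195 CPM per kb. Glul followed at 328.4 CPM per kb and Oat at 250.7, then Sds at 141.6, Gls2 at 138.3 and Hal at 113.1. Slc1a2 stood at 22.4, Rhbg at 5.20 and Axin2 at 2.18 CPM per kb. Ass1, a central enzyme of the urea cycle, was counted at 0 to 12 reads in every library, which is 0.0440 CPM per kb in WT males. It was therefore not tested and no fold change is given. Of the 100-base stretches of its transcript, 39.0% also occur in the Gm5424 transcript. The cause of its low counts was not tested.

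Ordered by their group means, the 9 tested members gave 45 pairs of neighbouring groups, and in 4 of these pairs the libraries did not overlap. The same share over all tested genes was not computed, so whether this is few or many is not known. WT males were the lowest group for all 5 pericentral genes and the highest for all 4 tested periportal genes. The separated neighbours were WT males below Y665H males for Glul and for Rhbg, and Y665H males below WT females and Y665F males below Y665F females for Slc1a2. At every other step the ranges of neighbouring groups overlapped, which does not show that the groups were equal: Hal in WT and Y665F males and Sds in WT and Y665F females were such neighbours and differed by the test given for them.

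**Figure D1:**
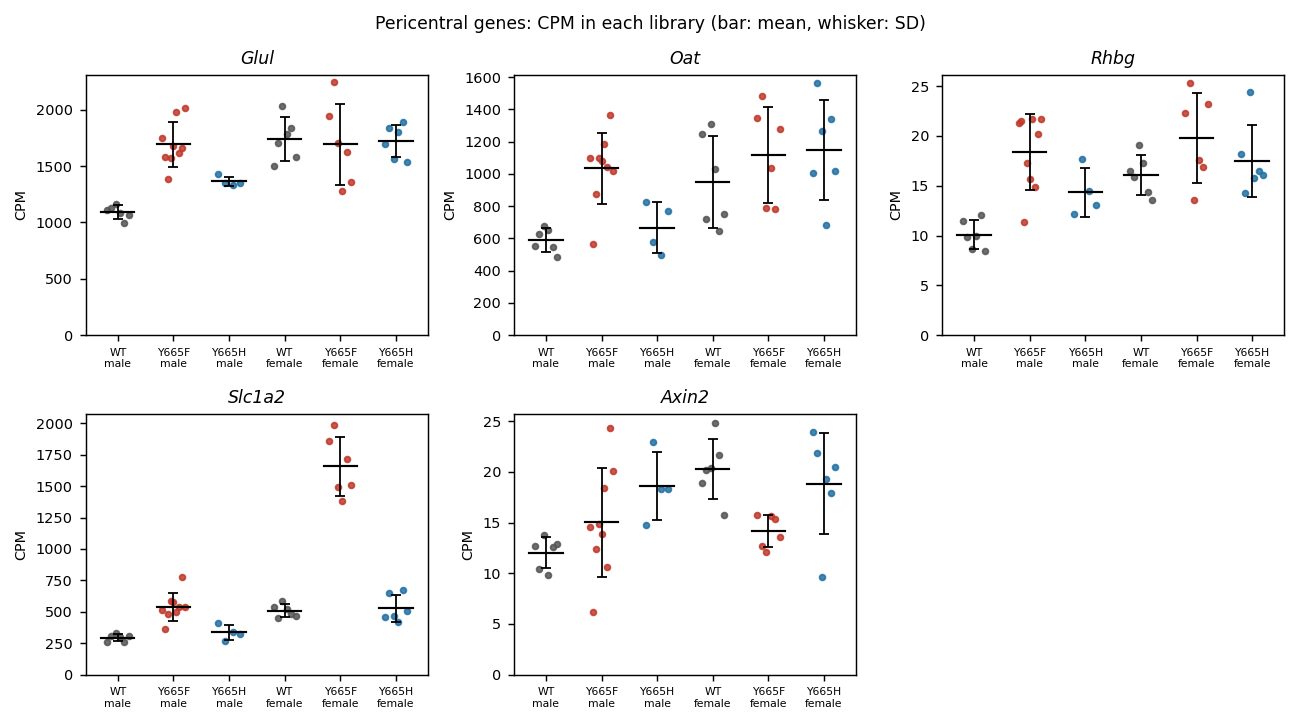
CPM of Glul, Oat, Rhbg, Slc1a2 and Axin2 (y axis, linear, from 0) in each of the 37 libraries (points) by group (x axis), with the mean (line) and SD (whisker). The WT male mean is lowest in each panel, though single Y665F male (6.13 CPM) and Y665H female (9.60 CPM) libraries lie below every WT male for Axin2, and the 6 Y665F females stand alone for Slc1a2, between 1382 and 1989 CPM.

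The first comparison set WT males against WT females, the baseline for the substitutions. All 5 pericentral genes were lower in males and 1 of 4 tested periportal genes, Hal, was higher, so 6 of 9 tested members were called (edgeR quasi-likelihood test, Benjamini-Hochberg adjusted p-value under 0.05), where 49.7% of all tested genes were called (23% higher and 26.8% lower). Group ranges did not overlap for 4 of the 9, where 29.8% of all tested genes had separate ranges. Glutamine synthetase, Glul, ranged from 993 to 1167 CPM (median 1097) in males and from 1498 to 2037 (median 1744) in females. Every male library lay below every female library, with a log2 difference of -0.67 (SE 0.10, adjusted p = 1.10e-06). Slc1a2, the glutamate transporter, ranged from 259 to 332 CPM (median 303) in males and from 451 to 589 (median 500.1) in females, again without overlap (log2 difference -0.79, SE 0.13, adjusted p = 6.51e-06). Rhbg, the ammonia channel, was at 8.42 to 12.0 CPM (median 9.93) against 13.5 to 19.1 (median 16.2), and Axin2 at 9.80 to 13.8 (median 12.7) against 15.8 to 24.8 (median 20.3). Neither gene's groups overlapped, and the log2 differences were -0.68 (SE 0.15, adjusted p = 3.53e-04) and -0.76 (SE 0.20, adjusted p = 0.00203). For Oat, which feeds ornithine into glutamate, males at 487 to 677 CPM (median 592) overlapped females at 643 to 1308 (median 892), with a log2 difference of -0.68 (SE 0.20, adjusted p = 0.00435).

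Among the periportal genes, Hal, which starts histidine breakdown, ranged from 533 to 689 CPM (median 647) in WT males and from 355 to 575 (median 427) in WT females. The ranges overlapped, and the log2 difference was 0.50 (SE 0.11, adjusted p = 3.32e-04). Gls2, the liver glutaminase, was at 466 to 502 CPM (median 478) in males and 298 to 539 (median 385) in females. Females were far more spread for this gene, and its log2 difference of 0.28 missed the threshold (adjusted p = 0.0773, 95% interval 0.01 to 0.54). Sds, serine dehydratase, was at 208 to 290 CPM (median 241) against 151 to 238 (median 216), and Cps1 at 5881 to 7319 (median 6599) against 5233 to 7315 (median 5701). Both overlapped and neither was called (Sds log2 difference 0.20, interval -0.11 to 0.50; Cps1 0.14, interval -0.07 to 0.36).

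Reads in no annotated gene made up 18.8% ± 0.893 (SD, n = 6) of WT male and 11.6% ± 1.97 (SD, n = 6) of WT female libraries, and clock genes differed too, with 5 of 16 called higher and 7 lower in males, beside 23% and 26.8% over all tested genes. With 2 clock components as covariates Hal moved to 0.15 (edgeR adjusted p = 0.576), Glul to -0.44 (adjusted p = 0.0572) and Axin2 to -0.69 (adjusted p = 0.146). With the share of reads in no annotated gene as covariate, Oat moved to -0.17 (adjusted p = 0.704), Axin2 to -0.46 (adjusted p = 0.255) and Rhbg to -0.49 (adjusted p = 0.104). Slc1a2 kept its call under both.

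In males, Y665F raised 4 of the 5 pericentral genes and lowered all 4 tested periportal genes. Of the 9 tested members 8 were called, against 52.5% of all genes tested (27.2% called higher and 25.3% called lower). The ranges of the 2 groups were apart for 4 of 9 members and for 26.4% of all genes tested. The median log2 fold change was 0.81 for the pericentral genes and -0.35 for the 4 periportal genes, beside -0.01 over all tested genes. Glul ranged from 1383 to 2018 CPM (median 1661) in the 9 Y665F males. All 9 lay above every WT male, a log2 fold change of 0.63 (SE 0.09, adjusted p = 5.03e-07). Slc1a2 ranged from 359 to 775 CPM (median 536), also entirely above the WT males, with a log2 fold change of 0.88 (SE 0.12, adjusted p = 1.81e-07). The Y665F males thus reached the range of WT females for both genes, in which the WT medians were 1744 and 500.1 CPM. Rhbg ranged from 11.3 to 21.7 CPM (median 20.1). Its lowest library fell among the WT males and all 9 were above their mean (log2 fold change 0.87, SE 0.14, adjusted p = 2.50e-06). Oat ranged from 563 to 1363 CPM (median 1077), with 8 of 9 libraries above the WT male mean and 1 inside the WT range (0.81, SE 0.18, adjusted p = 3.70e-04). Axin2 spread from 6.13 to 24.4 CPM (median 14.5), on both sides of WT males, and was not called (0.32, SE 0.18, adjusted p = 0.134). Without Y665F male replicate 2 it reached 0.42 (adjusted p = 0.0207).

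The periportal genes fell in Y665F males. Sds showed the largest change of the 4, at 88.4 to 191 CPM (median 144). Every library was below every WT male, with a log2 fold change of -0.71 (SE 0.14, adjusted p = 4.23e-05). Gls2, at 307 to 435 CPM (median 390), was also entirely below WT males (-0.31, SE 0.12, adjusted p = 0.0250). Hal, at 403 to 561 CPM (median 492), and Cps1, at 4413 to 6148 (median 5128), overlapped the WT range, although all 9 libraries lay below the WT mean for each. Their log2 fold changes were -0.34 (SE 0.10, adjusted p = 0.00477) and -0.36 (SE 0.10, adjusted p = 0.00180). With the clock components as covariates Cps1 moved to -0.23 (adjusted p = 0.206) and Gls2 to -0.29 (adjusted p = 0.169), and the other 6 calls held. Among those 6, Rhbg moved down to 0.48, while Oat moved up to 1.02 and Slc1a2 to 1.28. No call among the 8 was lost when any single library was left out.

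**Figure D2:**
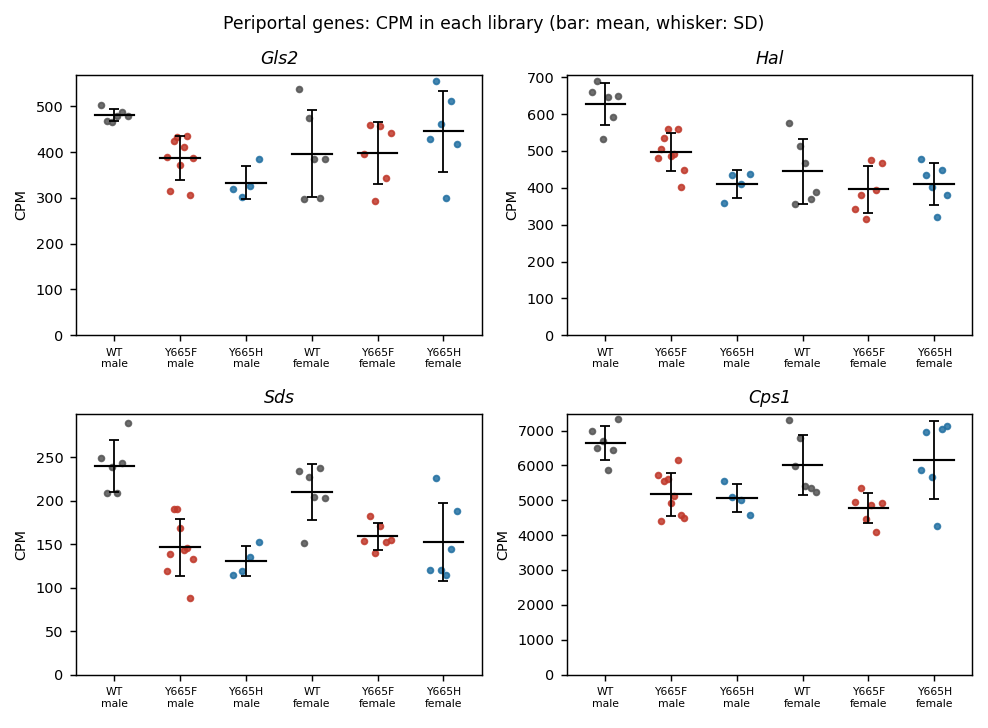
CPM of Gls2, Hal, Sds and Cps1 (y axis, linear, from 0) in each of the 37 libraries (points) by group (x axis), with the mean (line) and SD (whisker). WT males have the highest mean in each panel, and all 4 Y665H males lie below all 6 WT males in each.

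In females, Y665F gave another picture. Slc1a2 rose strongly, Axin2 fell, and of the periportal genes Sds and Cps1 fell, so 4 of 9 tested members were called, against 41% of all tested genes (17.8% higher and 23.3% lower). Ranges were apart for 2 of 9, Slc1a2 and Axin2, and for 19.9% of all tested genes. Slc1a2 ranged from 1382 to 1989 CPM (median 1611) in Y665F females. All 6 were above every library of the other 5 groups, and the log2 fold change against WT females was 1.71 (SE 0.13, adjusted p = 8.51e-13), a 3.27-fold difference. Axin2 ranged from 12.1 to 15.7 CPM (median 14.4), just below the lowest WT female at 15.8 (log2 fold change -0.52, SE 0.20, adjusted p = 0.0395). Cps1 ranged from 4099 to 5357 CPM (median 4899) and overlapped WT females narrowly, with all 6 libraries below the WT mean (-0.33, SE 0.11, adjusted p = 0.0109). Sds ranged from 139 to 182 CPM (median 154) and overlapped only the lowest WT female, at 151 (-0.40, SE 0.15, adjusted p = 0.0342).

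The remaining members were not called in Y665F females. Glul ranged from 1281 to 2249 CPM (median 1661), spanning the WT female range, with a log2 fold change of -0.04 (95% interval -0.24 to 0.16). Rhbg, at 13.5 to 25.3 CPM (median 20.0), and Oat, at 780 to 1483 (median 1156), had fold changes of 0.30 (interval -0.01 to 0.60) and 0.23 (interval -0.17 to 0.64). Rhbg reached an adjusted p of 0.0418 without Y665F female replicate 3. Gls2, at 294 to 458 CPM (median 418), and Hal, at 315 to 474 (median 388), overlapped WT females and changed by 0.00 (interval -0.26 to 0.27) and -0.17 (interval -0.39 to 0.06). Reads in no annotated gene made up 13.9% ± 1.21 (SD, n = 6) of Y665F female and 11.6% of WT female libraries. With that share as covariate the Axin2 (edgeR adjusted p = 0.118) and Sds (0.0582) calls were lost, as they were with upper quartile scaling (0.0725 and 0.0748) and without a filter on low counts (0.0556 and 0.0509). Axin2 also lost its call with limma-voom (adjusted p = 0.0817) and with libraries thinned to 1 depth (0.0501), and Sds with the clock components (0.0642). The Axin2 call was lost without any 1 of WT female replicates 2, 3, 4 and 5 or Y665F female replicates 2, 3 and 6 (highest edgeR adjusted p = 0.0938). The Sds call was lost without any 1 of WT female replicates 1, 3 and 5 or Y665F female replicates 1, 3, 5 and 6 (highest adjusted p = 0.0722), while Slc1a2 and Cps1 kept theirs in all these fits.

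Whether the Y665F effect differed between the sexes was tested with an interaction term, male effect minus female effect. It was called for 4 of 9 tested members, against 27.6% of all tested genes (16.1% higher and 11.5% lower). The effect was higher in males for Glul, by 0.67 on the log2 scale (SE 0.14, adjusted p = 2.81e-04), for Axin2 by 0.84 (SE 0.27, adjusted p = 0.0196) and for Rhbg by 0.57 (SE 0.20, adjusted p = 0.0330). It was lower in males for Slc1a2, at -0.83 (SE 0.17, adjusted p = 4.64e-04). The 4 tested periportal genes were not called, with values from -0.32 (Gls2, 95% interval -0.68 to 0.04) to -0.03 (Cps1, interval -0.32 to 0.26). The Rhbg call was lost without any 1 of 10 libraries (WT female replicates 2, 3 and 4, WT male replicates 2, 3, 4 and 6, Y665F female replicates 3, 4 and 5; highest edgeR adjusted p = 0.0813). With the clock components Slc1a2 moved to -0.40 (adjusted p = 0.141) and Rhbg to 0.20 (adjusted p = 0.563), and with the share of reads in no annotated gene Axin2 moved to 0.62 (adjusted p = 0.191) and Rhbg to 0.44 (adjusted p = 0.211). Axin2 also missed the threshold with limma-voom (0.76, adjusted p = 0.0575).

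**Figure D3:**
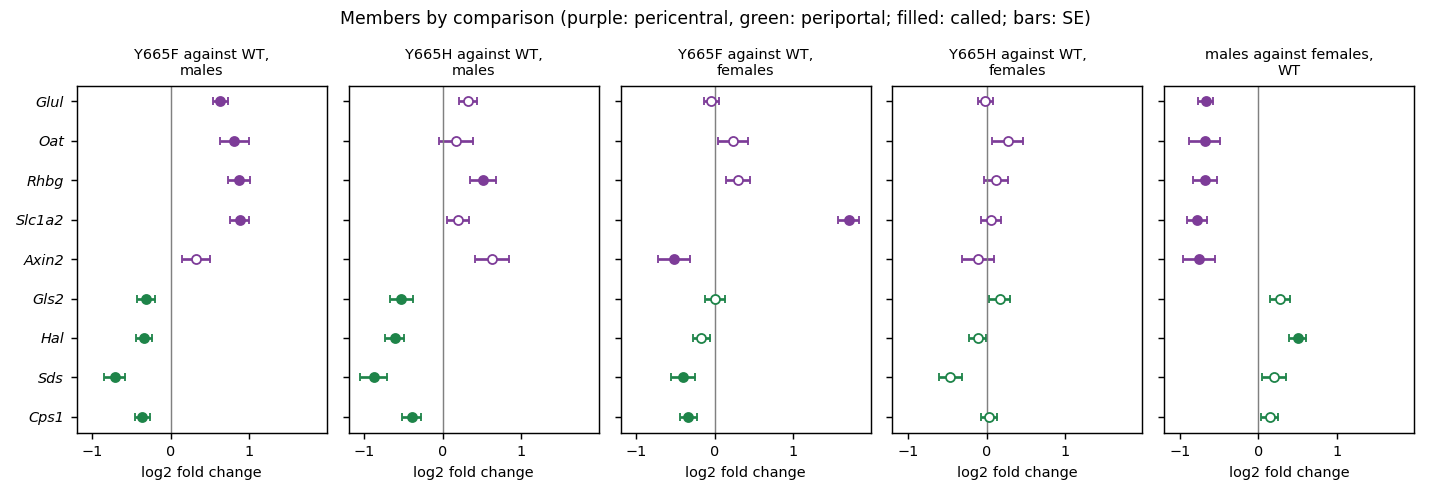
Log2 fold change (x axis) of the 9 tested members (y axis) in 5 comparisons, with SE bars; filled points were called at an adjusted p under 0.05, purple for pericentral and green for periportal genes. In males both substitutions leave the periportal genes left of 0, and in Y665F females Slc1a2 reaches 1.71.

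Y665H males also had lower periportal genes. All 4 tested periportal genes fell and Rhbg rose, so 5 of 9 tested members were called, against 8.4% of all tested genes (3.18% called lower and 5.22% called higher). In Y665H males replicates 1 to 4, Sds stood at 115, 119, 135 and 153 CPM. All 4 were below the lowest WT male at 208 (log2 fold change -0.88, SE 0.17, adjusted p = 0.00158). Hal stood at 359, 436, 409 and 438 CPM, below the lowest WT male at 533, with a log2 fold change of -0.61 (SE 0.13, adjusted p = 0.00209). Gls2 stood at 319.7, 302, 326 and 385 CPM, below the lowest WT male at 466 (-0.53, SE 0.15, adjusted p = 0.0225). For these 3 entry enzymes the groups were well apart. Cps1 stood at 5552, 5084, 5005 and 4568 CPM, under the lowest WT male at 5881 (-0.39, SE 0.12, adjusted p = 0.0337). Group ranges did not overlap for 4 of the 4 periportal genes and 3 of the 5 pericentral genes, where 12.5% of all tested genes had separate ranges.

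Rhbg stood at 12.1, 17.7, 14.4 and 13.0 CPM in the Y665H males, above the highest WT male at 12.0 (log2 fold change 0.51, SE 0.16, adjusted p = 0.0481). Glul stood at 1426, 1354, 1329 and 1354 CPM, all above the highest WT male at 1167, yet its fold change of 0.32 (SE 0.11) missed the threshold at an adjusted p of 0.0611. Axin2, at 14.8, 23.0, 18.3 and 18.4 CPM, was likewise above the highest WT male at 13.8 and was not called (0.63, SE 0.22, adjusted p = 0.0654). Both were called with the 2 groups fitted alone (adjusted p of 0.00416 for Glul and 0.00710 for Axin2) and by DESeq2 (0.0447 and 0.0476), and Axin2 with the clock components (0.0429). Slc1a2, at 411, 270.1, 341 and 323 CPM, and Oat, at 825, 577, 495 and 771, overlapped WT males, with fold changes of 0.19 (95% interval -0.10 to 0.49) and 0.17 (interval -0.27 to 0.62).

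With 4 Y665H males, 3 of the 5 calls depended on single libraries. Rhbg lost its call without any 1 of WT male replicates 1, 2, 3, 4 and 6 or Y665H male replicates 2, 3 and 4 (highest edgeR adjusted p = 0.224). Cps1 lost its call without any 1 of WT male replicates 1 and 6 or Y665H male replicates 2, 3 and 4 (highest adjusted p = 0.10), and Gls2 without either of Y665H male replicates 2 and 3 (highest adjusted p = 0.0764). Hal and Sds kept their calls in each case. Reads in no annotated gene made up 14.3% ± 1.77 (SD, n = 4) of Y665H male libraries and 15.8% ± 1.85 (SD, n = 9) of Y665F male libraries, against the mean of 18.8% in WT males. With that share as covariate the Rhbg (0.39, edgeR adjusted p = 0.281) and Cps1 (-0.39, adjusted p = 0.106) calls of Y665H males were lost. The Rhbg call also ended with RLE scaling (adjusted p = 0.0509), upper quartile scaling (0.0636), no filter on low counts (0.0523) and thinned libraries (0.0625).

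In Y665H females, 0 of the 9 tested members were called by edgeR's quasi-likelihood test, against 7.5% of all tested genes (4.4% higher and 3.1% lower), and no member had separate ranges (1.59% of all genes). Sds alone (1 of 9) had an unadjusted p under 0.05 in that fit. It ranged from 115 to 226 CPM (median 132), with 5 of 6 libraries below the WT female mean and overlap with WT females, and its log2 fold change was -0.46 (SE 0.15, adjusted p = 0.0563). DESeq2, limma-voom and upper quartile scaling each called it, with adjusted p of 0.0358, 0.0447 and 0.0485, and so did leaving out WT female replicate 2 or Y665H female replicate 2 or 6. For Glul the range was 1541 to 1891 CPM (median 1749) and for Slc1a2 419 to 671 (median 485), both across the WT female range, with fold changes of -0.02 (95% interval -0.22 to 0.19) and 0.06 (interval -0.21 to 0.32). Oat ranged from 681 to 1562 CPM (median 1142), Rhbg from 14.2 to 24.4 (median 16.2) and Axin2 from 9.60 to 24.0 (median 19.9). Gls2 ranged from 300.1 to 556 CPM (median 445), Hal from 320 to 478 (median 419) and Cps1 from 4260 to 7132 (median 6414). All 6 of these overlapped WT females, and their fold changes ran from -0.11 for Hal to 0.27 for Oat.

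The Y665H effect differed between the sexes for 1 of 9 tested members, against 5.24% of all tested genes (2.94% higher and 2.3% lower). For Gls2 the male effect minus the female effect was -0.70 (SE 0.20, adjusted p = 0.0322). All 4 tested periportal genes had values below 0, from -0.70 for Gls2 to -0.42 for Sds. The Gls2 call was lost without any 1 of WT female replicate 5, Y665H female replicates 2 and 5 and Y665H male replicates 1, 2 and 3 (highest edgeR adjusted p = 0.0744).

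Set directly against each other in males, the substitutions differed in 3 of the 5 pericentral genes. Glul was lower in Y665H than in Y665F males by a log2 difference of -0.31 (SE 0.10, adjusted p = 0.0162), Oat by -0.63 (SE 0.21, adjusted p = 0.0146) and Slc1a2 by -0.68 (SE 0.14, adjusted p = 1.41e-04). These 3 of 9 calls are a smaller share than the 41.7% over all tested genes (20.5% higher and 21.2% lower). Rhbg (-0.36, adjusted p = 0.0611) and Axin2 (0.31, adjusted p = 0.227) were not called. All 4 Y665H males lay below the Y665F male mean for each of the 3 genes, with overlapping ranges, and 24% of all genes had separate ranges. The 4 tested periportal genes were not called, and their differences ran from -0.28 (Hal, 95% interval -0.51 to -0.04, adjusted p = 0.0545) to -0.03 (Cps1, interval -0.26 to 0.19). The Glul call was lost without Y665H male replicate 3 (adjusted p = 0.0548), and the Oat call without Y665H male replicate 2 or 3 (adjusted p = 0.0596 and 0.0827).

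In females, 2 of 9 members differed between the substitutions, against 56.5% of all tested genes (30.5% higher and 26% lower). Slc1a2 was lower in Y665H than in Y665F females by -1.65 on the log2 scale (SE 0.13, adjusted p = 1.22e-12), without overlap, as for 24.3% of all genes. Cps1 was higher by 0.37 (SE 0.11, adjusted p = 0.00351), with 5 of 6 Y665H females above the Y665F mean.

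As a single description of each library, the mean log2 CPM (prior count 2) of the 5 pericentral genes minus that of the 5 periportal genes was computed. Since Ass1 was almost uncounted, it is also given over 4 periportal genes, and the values then run lower because the remaining genes are abundant. Over all 10 genes WT males averaged -0.31 ± 0.16 (SD, n = 6), Y665F males 0.78 ± 0.42 (SD, n = 9) and Y665H males 0.67 ± 0.06 (SD, n = 4). It was 0.74 ± 0.16 in WT females, 1.36 ± 0.22 in Y665F females and 0.89 ± 0.07 in Y665H females (SD, n = 6 each). Without Ass1, WT males ranged from -3.02 to -2.66 and were below every other library. Y665F males ranged from -2.20 to -0.96, and the 4 Y665H males stood at -1.75, -1.79, -1.94 and -1.95. WT females ranged from -2.10 to -1.65, so both groups of mutant males overlapped WT females. Y665F females, at -1.57 to -1.02, were above every WT female, and Y665H females ranged from -1.82 to -1.43. Since the members were chosen with results known, no test was made of this difference. In Y665F females the difference of 0.62 over 10 genes fell to 0.27 without Slc1a2.

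**Figure D4:**
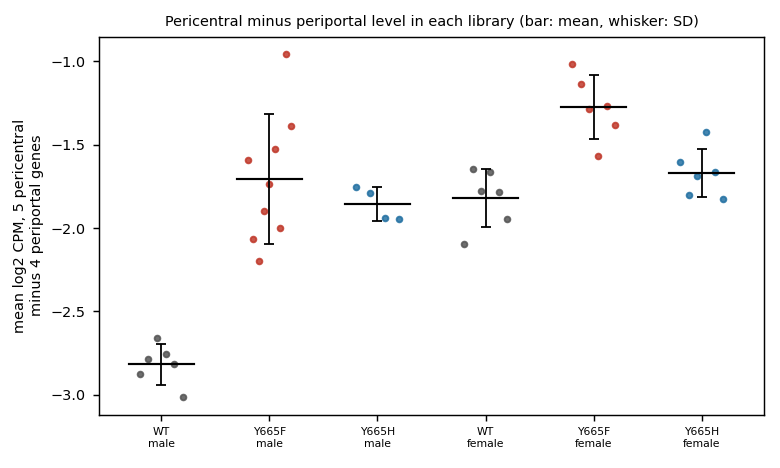
Mean log2 CPM of 5 pericentral genes minus that of 4 periportal genes, Ass1 left out (y axis), in each library (points) by group (x axis), with the mean (line) and SD (whisker). The 6 WT males, from -3.02 to -2.66, are below all other libraries, and the mutant males overlap WT females.

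Genes outside the members were looked at in lists by zone and pathway, and their counts are descriptions. Of 20 other pericentral genes, 16 were lower and 1 higher in WT males than in WT females, with a median of -0.45, where 26.8% of all tested genes were lower. Slc13a3, a carboxylate transporter, had the largest difference (-1.56, SE 0.15), followed by the Wnt inhibitor Notum (-1.11, SE 0.09) and the transcriptional repressor Tbx3 (-0.88, SE 0.22). In Y665F males 9 of the 20 were higher and 4 lower, with a median of 0.17, beside 27.2% and 25.3% over all tested genes. Slc13a3 rose by 1.51 (SE 0.14, edgeR adjusted p = 4.61e-11), from 15.7 to 44.5 CPM, beside 46.2 in WT females, Lhpp by 1.14 (SE 0.15) and the tight junction gene Cldn2 by 0.74 (SE 0.09). In Y665H males 5 rose (median 0.23; 5.22% of all genes were higher), led by Slc13a3 (0.91), Tbx3 (0.90) and Cldn2 (0.61). In Y665F females 3 rose and 10 fell (median -0.18), beside 17.8% and 23.3% over all genes, with Lhpp up (1.02) and the drug-metabolising enzyme Cyp2e1 (-0.84) and the haem synthesis enzyme Cpox (-0.82) down. In Y665H females 2 rose (median 0.12; 4.4% of all genes were higher), Aldh1a1 (0.67) and Cldn2 (0.29).

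Of 20 other periportal genes, 6 were higher and 6 lower in WT males than in WT females, with a median of 0.00, near the 23% and 26.8% over all tested genes. In Y665F males 12 fell and 3 rose (median -0.35), beside 25.3% lower and 27.2% higher over all genes. The largest fall was in Cyp2f2, a periportal cytochrome P450, from 1607 to 505 CPM (log2 fold change -1.67, SE 0.12, edgeR adjusted p = 4.17e-14). Apolipoprotein Apoa4 (1.61) and the protease Ctsc (1.56) rose. In Y665H males 6 fell (median -0.25; 3.18% of all genes were lower), led by Hsd17b6 (-1.58), Etnppl (-1.34) and Cyp2f2 (-0.71). In Y665F females 9 fell and 3 rose (median -0.27), beside 23.3% and 17.8% over all genes, and in Y665H females Cdh1 (-0.39) and Mfsd2a (-1.16) fell (median -0.05; 3.1% of all genes were lower).

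**Figure D5:**
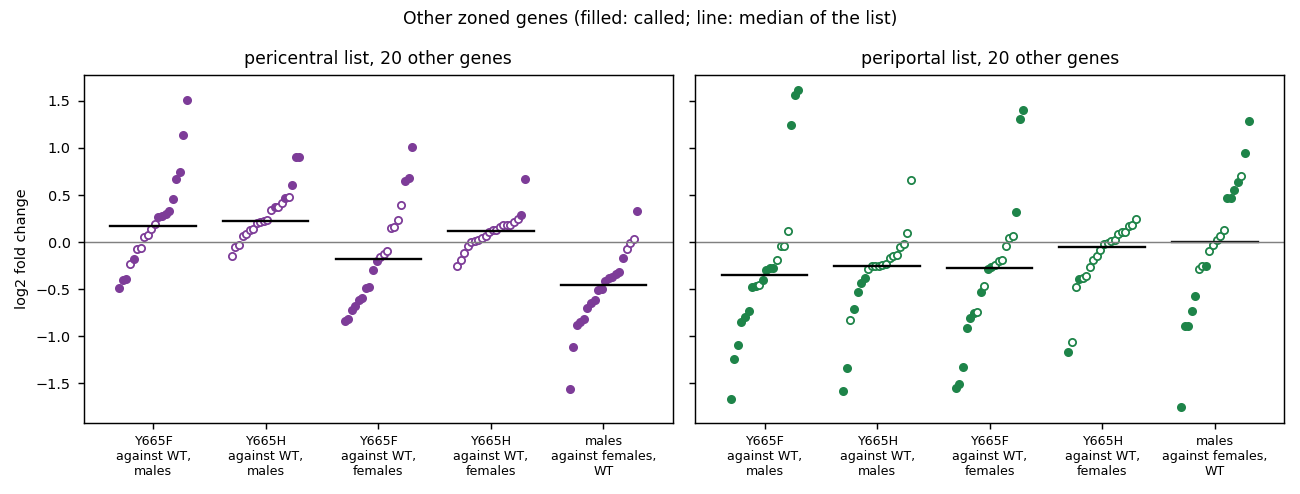
Log2 fold change (y axis) of 20 other pericentral genes (left) and 20 other periportal genes (right) in 5 comparisons (x axis). Each point is a gene, filled where called, and the line is the median, which runs from -0.45 to 0.23 on the left and from -0.35 to 0.00 on the right.

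The urea cycle list holds Cps1, Ass1 and 7 other genes, of which 8 in all were tested. In Y665F males 4 fell and no other was called, where 25.3% of all tested genes were lower. Among them were Otc, which makes citrulline (436 to 307 CPM, log2 fold change -0.51, SE 0.07), and the aspartate carrier Slc25a13 (-0.47, SE 0.07). In Y665F females 3 fell, again Otc (-0.40), Slc25a13 (-0.37) and Cps1, beside 23.3% over all genes. In Y665H males 3 fell, Asl (-0.43), Cps1 and Otc (-0.33), beside 3.18%. In Y665H females edgeR called 0 of 8 (1 at an unadjusted p under 0.05), as did DESeq2 and limma-voom, where 3.1% of all genes were lower and 4.4% higher. Otc was also higher in WT males than in WT females (0.32), and its Y665H effect differed between the sexes (-0.50, edgeR adjusted p = 0.0103).

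Of 22 tested genes of glutamine, glutamate, proline and ammonia handling, members included, 10 rose and 8 fell in Y665F males, beside 27.2% higher and 25.3% lower over all tested genes. The proline synthesis enzyme Aldh18a1 rose by 1.38 (SE 0.18), from 1.27 to 3.31 CPM, the neutral amino acid transporter Slc1a4 by 1.24 (SE 0.18), and the cationic amino acid transporter Slc7a2 fell by 1.32 (SE 0.13). In Y665F females 5 rose and 6 fell, near the 17.8% and 23.3% over all tested genes, with Slc1a2 the largest and Slc38a4 next (-1.19, SE 0.11). In Y665H males 2 rose and 2 fell, beside 5.22% and 3.18% over all genes. In Y665H females, where 7.5% of all genes were called, 0 of 22 were called by edgeR (1 at an unadjusted p under 0.05; 0 by DESeq2 and limma-voom). Of 6 histidine genes, 4 fell in Y665F males, including Hal and Ftcd (-0.79, SE 0.06), and Carns1 rose (0.99, SE 0.14). In Y665H males Hal and Amdhd1 (-0.43) fell, where 3.18% of all tested genes were lower. Of 24 other amino acid breakdown genes 10 fell and 2 rose in Y665F males. For this and the other lists of this paragraph, 25.3% of all tested genes were lower and 27.2% higher in Y665F males. Tdo2, which opens tryptophan breakdown, went from 1524 to 631 CPM (-1.27, SE 0.10), and Mat1a, which makes S-adenosylmethionine, rose (0.76, SE 0.08). In Y665H males edgeR called 0 of the 24 (7 at an unadjusted p under 0.05), DESeq2 2 and limma-voom 0, where edgeR called 8.4% of all genes. Among 11 regulators of amino acid metabolism 5 fell and 1 rose in Y665F males, with the glucagon receptor Gcgr at -0.46 (SE 0.05) and Klf15 at -0.56 (SE 0.10).

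For the Wnt pathway that acts on Axin2 and Glul, ligands, receptors and targets are given in turn. Of 5 ligand and R-spondin genes, edgeR called 1 in Y665F males, Wnt5a (1.40, SE 0.16; 27.2% of all tested genes were higher). In Y665H males it called Wnt5a (0.76, SE 0.19) and DESeq2 and limma-voom called 2 each, where edgeR called 5.22% of all genes higher. In Y665H females Rspo3 was called (0.34, SE 0.09; 4.4% of all genes were higher). In WT males 3 of the 5 were higher than in WT females, including the endothelial ligands Wnt2 (0.64) and Wnt9b (0.47), and Wnt5a was lower (-0.80). Of 10 markers of central vein and sinusoidal endothelium, 6 were higher and none lower in WT males (median 0.42). The ligand genes Wnt2, Wnt9b and Rspo3 are themselves on that marker list, so the 2 counts share genes. The part of the endothelial markers in the ligand difference was not tested. Of 10 receptor genes 2 were higher and 4 lower in WT males, Lgr5 (-0.64) among the lower. Of 10 transcription factors and feedback genes 2 were higher and 5 lower, the targets Tbx3 and Notum among the lower. The target Axin2, which is not on this list, was lower too. Over all tested genes 23% were higher and 26.8% lower. Of the 10 transcription factors and feedback genes, 5 rose and 2 fell in Y665F males, beside 27.2% and 25.3% over all genes, with Tcf7 at 1.23 (SE 0.11), Tbx3 at 0.67 (SE 0.20) and Nkd1 at 0.33 (SE 0.08). In Y665F females 5 rose and 2 fell, beside 17.8% and 23.3%, with Bcl9 at 1.06 (SE 0.09) and Notum at -0.59 (SE 0.09). Of the 10 receptors 3 rose and 2 fell in Y665F males, and 3 rose and 3 fell in Y665F females, with Lgr5 at -0.48 (SE 0.15). In Y665H males edgeR called 0 of the 10 receptors, where it called 8.4% of all tested genes. Of these receptors 4 had an unadjusted p under 0.05, and DESeq2 and limma-voom called 1 each. In Y665H females edgeR, DESeq2 and limma-voom called 0 receptors (3 at an unadjusted p under 0.05), where edgeR called 7.5% of all genes. Of the 10 transcription factors and feedback genes, 2 rose and 2 fell in Y665H males, beside 5.22% and 3.18% over all genes. In Y665H females 1 fell (0 by limma-voom), beside 3.1%. Tcf7 is also expressed in T cells.

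Genes whose libraries varied most like each member, after each group's mean was subtracted, were named from 37 libraries by Pearson's r of log2 CPM, as a description that shares depth and RNA quality across genes. Glul was followed most closely by Aldoc (r = 0.73), Slc22a3 (0.68) and Psmf1 (0.67). For the other pericentral genes the nearest were Lhpp for Oat (0.90), Pgap2 for Rhbg (0.71), Cyp2e1 for Slc1a2 (0.89) and Tbx3 for Axin2 (0.82). For the periportal genes they were Gnmt for Gls2 (0.90), Amdhd1 for Hal (0.81), Slc25a51 for Sds (0.77) and Cyp1a2 for Cps1 (0.76). Cyp1a2 is on the list of other pericentral genes, so the gene nearest to Cps1 came from the opposite zone. Among members, the 6 periportal pairs had r between 0.42 and 0.77, the 10 pericentral pairs between -0.08 and 0.72, and the 20 pairs across the zones between -0.34 and 0.70. Slc1a2 and Cyp2e1, so close within groups, changed in opposite directions under Y665F in both sexes (Cyp2e1 -0.41 in males and -0.84 in females).

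Other features moved with the same groups. The counts that follow stand beside the shares of all tested genes called higher, which were 5.22% for Y665H males, 17.8% for Y665F females and 27.2% for Y665F males, and beside 26.8% lower in WT males than in WT females. Macrophage markers (6 genes, none at 0) summed to 268 to 644 CPM in Y665F males, 247 to 338 in Y665H males and had a median of 191 in WT males, whose highest library overlapped the Y665H males. By edgeR 6 of 6 were called higher in Y665F males and 1 of 6 in Y665H males, where 5 of 6 had an unadjusted p under 0.05 and DESeq2 called 4 and limma-voom 1. T and B cell markers summed to 5.47 to 11.9 CPM in Y665F males against 2.95 to 4.59 in WT males, with 5 of 6 higher, and to 6.69 to 10.0 CPM in Y665F females against 3.40 to 4.95 in WT females, with 6 of 6 higher. In Y665F males 5 of 5 neutrophil markers (median log2 fold change 3.16), 5 of 6 stellate cell and fibroblast markers (0.39) and 4 of 6 proliferation genes (1.22, with 1 lower) were also higher. The neutrophil markers were at low levels, summing to 0.286 to 0.620 CPM in WT males and 1.47 to 8.38 in Y665F males. Macrophage markers were 6 of 6 lower in WT males than in WT females (median -0.82), and stellate cell and fibroblast markers 4 of 6 (median -0.44). Pancreas markers (5 genes, 1 tested) summed to 4.86 to 9.10 CPM in Y665F males against 15.2 to 24.0 in WT males. In Y665F females they summed to 4.20 to 6.32 CPM against 12.3 to 22.4 in WT females. Hepatocyte markers summed to 149013 to 166772 CPM in Y665F males against 92103 to 103186 in WT males, and to 218462 to 255603 in Y665F females against 120858 to 146143 in WT females, without overlap. Of these 7 genes 2 were higher and 3 lower in Y665F males, and 2 higher and 2 lower in Y665F females. Acute phase genes summed to 2745 to 7240 CPM in Y665H males and 2272 to 7366 in Y665F males, against 2112 to 2250 in WT males, and 5 of 6 were higher in each. Markers of central vein and sinusoidal endothelium (10 genes, none at 0) summed to 228 to 298 CPM in Y665H males, below the 311 to 341 of WT males. By edgeR 0 of these 10 were called in Y665H males (4 at an unadjusted p under 0.05), with 2 called by DESeq2 and 1 by limma-voom. Of 16 clock genes, 10 were lower and 2 higher in Y665F males (median -0.55), beside 25.3% and 27.2% over all genes. In Y665H males edgeR called 0 of 16 (1 at an unadjusted p under 0.05), as did DESeq2 and limma-voom, where edgeR called 8.4% of all genes. The part of the cell type and acute phase markers in the zonation results was not tested.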

How the data were processed

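The 37 mouse liver libraries were sequenced as ribosome-depleted, paired-end total RNA, per the labels' protocols. The submitters' processing notes name FastQC 0.11.9, Trimmomatic 0.36, STAR, SAMtools 1.9, Picard 2.9.2, HTSeq 0.9.1 and mm10. The annotation and strand setting are not given in the sources used here. The values deposited by the authors are raw counts per gene symbol, not normalized. Rows that name no gene held 32.4% to 49.9% of a library's reads and were left out of library sizes and tests.

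Groups follow the genotype and sex in the labels. The analysis used edgeR 4.0.16 in R 4.3.3: filterByExpr by group (minimum count 10, minimum total 15), TMM scaling, and 1 quasi-likelihood model over all 37 libraries with a mean per group. P-values are 2-sided and adjusted by Benjamini-Hochberg over 15152 genes, called under 0.05. CPM values are TMM-scaled. SEs were derived from the F statistic of each test. The labels do not say that each library of a group came from a separate mouse, so p-values measure the spread between these libraries, which may be technical. Ass1 had too few counts to test, while the 9 tested members had at least 304 reads in every library. DESeq2 1.42.0, limma 3.58.1 (voom), other scalings, filters and covariates, thinning to the smallest library and leaving out each library were tried as alternatives. The test was checked on simulated data.

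The members and gene lists were chosen with earlier results of these data known. All members are named, and from each list at most 3 called genes per comparison, those with the largest absolute log2 fold change and a mean of at least 1 CPM in a group compared. The genes most like a member are those with the highest Pearson r within groups. A few further genes of the lists are named beside a member for comparison. No library was identical to another.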

Additional observations from a re-analysis of the deposited data

Results flagged for a closer look

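Effects of a substitution that differed between males and females, by an interaction term in the edgeR quasi-likelihood model, stood out for 5 results. For the Y665F effect in males minus that in females, the log2 difference was 0.67 for Glul, 0.57 for Rhbg, -0.83 for Slc1a2 and 0.84 for Axin2. Glul rose in Y665F males (0.63) and was near 0 in females (-0.04), and Axin2 fell in females (-0.52) beside 0.32 in males. Slc1a2 rose in both sexes, more in females (1.71 against 0.88). For the Y665H effect, Gls2 differed by -0.70, with -0.53 in males and 0.17 in females. Their cause was not tested. By Dixon's gap test, which sets the gap to the nearest library against the range of the group, none of the 54 sets of 4 to 9 libraries of a tested member passed its critical value. That test did not pass for Axin2 in Y665F male replicate 2 (6.13 CPM) and Y665H female replicate 3 (9.60 CPM), the lowest of their groups.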

How the results depend on the processing

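Replicate numbers follow the sample titles. Those in the names of the deposited files differ from the titles in Y665F males, WT females and Y665H females, and pairing by them was not tried. The title numbers are shared between groups only as numbers: same-numbered libraries correlated between -0.23 and 0.15 in their deviations from the group means, and at most 2 pairs of a comparison correlated best with their own number. With a replicate block, members with a called Y665F by sex interaction went from 4 to 2, and no other count of called members moved by over 1.5 times. The block ended the calls of Gls2 in Y665F males (adjusted p = 0.0809), Rhbg in Y665H males (0.0940), Glul and Oat between Y665H and Y665F males (0.0534 and 0.0506) and Rhbg and Axin2 in the Y665F by sex interaction (0.0666 and 0.0646), and brought Axin2 in Y665H males past the threshold (0.0486). In Y665F females 4 called members became 2 without a filter, with the share of reads in no annotated gene as covariate and with upper quartile scaling. In Y665H males 5 became 3 with that share, and in Y665H females 0 became 1 with DESeq2, limma-voom and upper quartile scaling. Y665H against Y665F males went from 3 to 5 with that share and with upper quartile scaling, the WT sex difference from 6 to 3 with the clock components, and the Y665H by sex interaction from 1 to 2 with DESeq2 and with that share. Leaving out single libraries gave 2 to 4 members for Y665F females, 2 to 5 for Y665H males, 0 to 1 for Y665H females, 1 to 4 for Y665H against Y665F males and 0 to 3 for the Y665H by sex interaction. The cause was not tested.

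Values that changed sign were small and uncalled. Glul in Y665F females moved from -0.04 to 0.011 (clock components), 0.0232 (no-gene share) and 0.0224 (upper quartile scaling), Gls2 there from 0.00 to -0.094 (clock), and Oat in Y665H males from 0.17 to -0.12 (no-gene share). Without single libraries, Y665F females gave -0.137 to 0.0295 for Glul and -0.064 to 0.11 for Gls2. Y665H females gave -0.0545 to 0.0352 for Glul, -0.0233 to 0.12 for Slc1a2, -0.19 to 0.0265 for Axin2 and -0.0137 to 0.12 for Cps1.

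The pericentral minus periportal difference from WT over 10 genes was 1.10 and 0.99 in Y665F and Y665H males and 0.62 and 0.15 in the females. Divided by the SD of WT libraries per gene it was 8.47, 8.02, 3.08 and 0.52, a scale that differs by construction. In Y665F females it was 0.83 without Axin2 and 0.27 without Slc1a2.

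Counts over all genes, which set the backgrounds, moved by over 1.5 times in some alternatives. Y665H males went from 1273 to 543 (no-gene share), 2171 (clock) and 2186 (2 groups alone). Y665H females went from 1136 to 757 without a filter, 452 and 80 (no-gene share, 2 groups alone). The WT sex difference went from 7537 to 4380 and the Y665F by sex interaction from 4189 to 2602, both with the no-gene share. The Y665H by sex interaction went from 794 to 1245 (DESeq2) and 1652 (no-gene share).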
